A study of Mus musculus with 3 samples.

Results

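The myeloid lineage transcription factors are 9 genes, *Spi1*, *Cebpa*, *Cebpb*, *Cebpd*, *Cebpe*, *Gfi1*, *Irf4*, *Irf8* and *Id2*, chosen by name out of the 36172 genes of the deposited table. Of these, 8 were found by their symbol, and *Spi1* was found as *Sfpi1*, its older symbol. Their RNA was measured in 3 RNA-seq libraries of bone marrow LSK cells (lineage-negative, Sca1-positive, c-Kit-positive), a fraction rich in hematopoietic stem and early progenitor cells. The libraries came from *Calr* WT/WT mice, heterozygous *Calr* ins2/WT mice and heterozygous *Calr* del10/WT mice on a C57BL/6 background, and are called WT, ins2 and del10. Both knock-in alleles are germline frameshifts of the last exon of *Calr* made with CRISPR-Cas9 and are not limited to blood cells. Each library was an aliquot from 4 pooled male mice of 3 months age. As each genotype has a single library, no difference could be set against a spread between replicates, and p-values are left out.

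These factors divide the work of making granulocytes, monocytes and dendritic cells from multipotent progenitors. PU.1, the product of *Spi1*, and C/EBP alpha open the myeloid program, C/EBP epsilon and GFI1 carry granulocyte maturation, IRF8 favors monocytes and dendritic cells, and C/EBP beta and delta act in emergency granulopoiesis and inflammation. IRF4 and ID2 also serve lymphoid cells: IRF4 acts in pre-B cells, activated B cells and plasma cells, and ID2 is needed for natural killer and other innate lymphoid cells.

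Gene counts summed to 9823095 reads (WT), 10967622 (ins2) and 11111698 (del10). Values below are normalized counts, the read counts multiplied by the scaling factor of each library that the deposited values imply, and log2 ratios were taken after adding 1. The RNA input was 5 ng, and the commonest low read count per gene was 61 (WT), 21 (ins2) and 16 (del10). A gene's reads divided by this number are called its estimated fragments, and intervals are 95% exact binomial intervals on them, which cover counting error only. Of the sort markers, *Kit*, which encodes c-Kit, did not bear out the label of the WT library. *Kit* had 286 normalized counts (WT), 3082 (ins2) and 4177 (del10). *Cd34*, an LSK identity gene of the lists below but not a sort marker, had 0, 727 and 1664. *Ly6a*, which encodes Sca1, was low throughout, at 145, 120 and 51.9, and so did not bear out the sort in any library. *Calr* itself had 3800, 4679 and 7300, which does not check the genotypes, since a frameshift need not change the level. Every comparison with WT below rests on that library, and del10 against ins2 is the comparison without it.

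The starts of *Cebpa* and *Irf4* are shown because, of the 6 factors abundant enough for the main set of genes described below, these differed most from WT, in opposite directions. Each window runs from 250 bases before to 50 bases after the start of the gene on the plus strand, as given by RefSeq on GRCm38.p6 (the build mm10 of the files), at chr7:35119043-35119342 for *Cebpa* and chr13:30748983-30749282 for *Irf4*. Capitals mark the TATA box letters TATAAA in both windows and, in *Irf4*, a PU.1 motif (GAGGAA) read on the opposite strand.

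Cebpa: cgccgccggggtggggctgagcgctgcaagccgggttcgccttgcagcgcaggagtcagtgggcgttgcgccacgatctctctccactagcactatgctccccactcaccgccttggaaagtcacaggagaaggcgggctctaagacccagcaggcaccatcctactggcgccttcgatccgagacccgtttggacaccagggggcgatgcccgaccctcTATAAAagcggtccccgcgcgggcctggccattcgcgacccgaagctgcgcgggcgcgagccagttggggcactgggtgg
Irf4: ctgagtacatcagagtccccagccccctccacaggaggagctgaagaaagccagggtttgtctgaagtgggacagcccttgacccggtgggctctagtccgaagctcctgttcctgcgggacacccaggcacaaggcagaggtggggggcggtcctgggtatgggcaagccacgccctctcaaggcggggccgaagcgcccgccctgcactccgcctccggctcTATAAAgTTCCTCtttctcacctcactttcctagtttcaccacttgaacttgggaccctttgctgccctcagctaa

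RefSeq windows were at hand for 6 of the 9 genes, 8 windows in all since *Gfi1* and *Irf8* have a pair each. On both strands, TATAAA lay in 4 of the 8 windows (*Cebpa*, *Cebpb*, *Irf4* and *Irf8*), against 13.6% of all 32851 windows. GAGGAA lay in 1 (28.3% of all windows), the C/EBP letters TTGCNNAA in 1, of *Gfi1* (10.8%), and the GFI1 core AAATCA in 2, both of *Irf8* (14.0%). The IRF letters GAAANNGAA (8.56%) and the ETS-IRF composite GGAANNGAA (8.24%), which have most letters in common, were found in none. The E-box CANNTG, which ID2 keeps E proteins from binding, lay in 6 of 8 (72.3%). These are matches of letters, not sites shown to be bound.

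The order of the factors differed between the libraries. Levels of different genes were compared as normalized counts per kilobase of the principal GENCODE transcript. In WT, *Irf4* was highest at 2521 per kilobase (interval 2164 to 2917) and *Irf8* followed at 1088 (793 to 1445). *Id2* (416), *Gfi1* (218), *Spi1* (183) and *Cebpa* (54.4) came next in WT, and neighbours among these 4 had overlapping intervals. In ins2, *Irf8* led at 1806 (1590 to 2046), ahead of *Id2* at 818 (647 to 1022), *Cebpa* at 569 (443 to 714) and *Irf4* at 350 (279 to 437), and the intervals of *Id2* and *Cebpa* overlap. In del10, *Irf8* led at 1308 (1147 to 1492), with *Cebpa* at 599 (483 to 728) and *Irf4* at 554 (472 to 646), which overlap. The per-kilobase ratio of *Irf4* to *Irf8* was thus 2.32 (WT), 0.194 (ins2) and 0.424 (del10). That of *Cebpa* to *Spi1* was 0.297 (WT), 3.04 (ins2) and 3.10 (del10). The order within each library was the same with the length of all basic GENCODE exons.

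**Figure D1:**
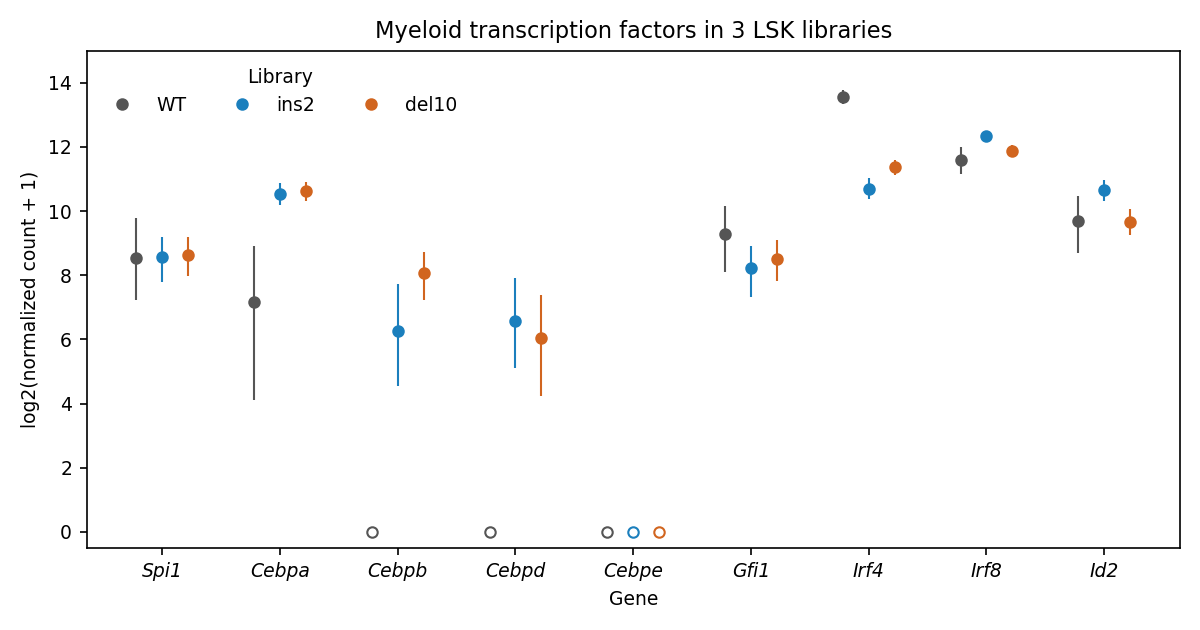
Log2(normalized count + 1) of the 9 transcription factors, with 1 point per library and lines for 95% Poisson intervals on estimated fragments; open points are genes listed at 0. *Irf4* is highest in WT (12008 normalized counts) and *Cebpa* is lowest there (143), while *Spi1* lies between 373 and 393 in the 3 libraries.

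*Spi1* (chromosome 2, 91096797 to 91115756 on mm10) encodes PU.1, the ETS factor that commits progenitors to myeloid and B-cell fates. It had 373 normalized counts (WT), 380 (ins2) and 393 (del10). Its level was nearly level across the libraries, with a ratio to WT of 1.06 in del10 (interval 0.387 to 2.91) and 1.02 in ins2 (0.352 to 2.84). The intervals are wide, as WT held 5.56 estimated fragments of it, and a difference within them was not detectable at this depth.

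*Cebpa* (chromosome 7, 35119293 to 35121931), an intronless gene whose product is required for the step from common myeloid to granulocyte-monocyte progenitors, was far higher in both knock-in libraries. It had 143 normalized counts (WT), 1494 (ins2) and 1573 (del10). This is 11.0-fold higher than WT in del10 (interval 3.14 to 97.7) and 10.5-fold in ins2 (2.96 to 93.3). Both intervals lie above no difference, but WT rests on 130 reads, or 2.13 estimated fragments. Of the 7073 genes in the main set (mean of at least 215 normalized counts over the libraries), 102 had a higher ratio than *Cebpa* in del10 and 107 in ins2. In bulk samples, more cells of a type and more RNA per cell cannot be told apart.

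*Cebpb*, which drives granulocyte production under stress and macrophage activation, was listed at 0 in WT and had 75.8 (ins2) and 265 (del10) normalized counts in the knock-in libraries. *Cebpd*, induced by cytokines and lipopolysaccharide, was also listed at 0 in WT, with 93.5 in ins2 and 65.2 in del10. Against a floor of 3 reads in WT, *Cebpb* was at least 80.3-fold higher in del10 and 23.0-fold in ins2, and *Cebpd* at least 19.8-fold and 28.3-fold, if each read is a separate count. On estimated fragments, none of these 4 intervals leaves out equality: they start at 0.937-fold and 0.203-fold for *Cebpb* and at 0.160-fold and 0.282-fold for *Cebpd*. *Cebpd* overlaps *2310008H04Rik* on the other strand, which had 0 reads (WT), 268 (ins2) and 286 (del10). The kit keeps strand, but the sources used here do not say whether the counting did, so reads of the pair may not be separated. *Cebpe*, which acts late in granulocyte maturation, was listed at 0 in the 3 libraries. On estimated fragments, this allows up to 199 (WT), 61.4 (ins2) and 48.4 (del10) normalized counts per kilobase, so a low level was not detectable at this depth.

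*Gfi1* (chromosome 5, 107716655 to 107725805), a zinc finger repressor that limits monocyte genes in granulocyte precursors and restrains stem cell cycling, had 624 normalized counts (WT), 297 (ins2) and 362 (del10). It was highest in WT, 2.1-fold lower in ins2 (interval on that fold 0.797 to 5.18) and 1.72-fold lower in del10 (0.682 to 3.80). Both intervals include no difference.

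*Id2* (chromosome 12, 25093799 to 25096092), which encodes an inhibitor that binds E proteins and keeps them from DNA, had 818 normalized counts (WT), 1610 (ins2) and 809 (del10). It stood out in ins2 alone, at 1.97-fold the WT level (interval 1.08 to 4.04), while del10 lay at 0.988-fold (0.532 to 2.09).

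*Irf8* (chromosome 8, 120736376 to 120756692), the factor of monocyte and dendritic cell precursors, had 3097 normalized counts (WT), 5143 (ins2) and 3725 (del10). Its ratio to WT was 1.66 in ins2 (interval 1.21 to 2.34) and 1.20 in del10 (0.878 to 1.70).

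*Irf4* (chromosome 13, 30749258 to 30766927), the close relative of *Irf8*, showed the reverse pattern, with 12008 normalized counts (WT), 1665 (ins2) and 2641 (del10). It was 7.21-fold lower than WT in ins2 (interval 5.49 to 9.44) and 4.55-fold lower in del10 (3.66 to 5.66). As WT held 179 estimated fragments of it, these are the narrowest intervals against WT among the factors that lay over 2-fold apart. Only 29 genes of the main set had a lower ratio in ins2 and 89 in del10.

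Of the 9 factors, 6 were in the main set, *Cebpb* and *Cebpd* were below its minimum and *Cebpe* had no read. In del10 against WT, 1 of the 6 was called over 2-fold higher (*Cebpa*) and 1 over 2-fold lower (*Irf4*), where 15.3% of all main-set genes were higher and 10.2% lower. In ins2 against WT, 1 was higher (*Cebpa*) and 2 were lower (*Irf4* and *Gfi1*), where 15.7% and 10.7% of all genes were. Among 6 genes, 1 is a share of 16.7% and 2 are 33.3%, so these counts do not set the factors apart. The median log2 ratio of the 6 was 0.03 in del10 and 0.38 in ins2, against 0.04 and 0.04 over the main set. An interval on fragments that leaves out no difference was found for 2 of the 6 in del10 (*Cebpa* and *Irf4*), against 21.1% of main-set genes, and for 4 in ins2 (also *Irf8* and *Id2*), against 20.8%. Both comparisons share the WT library and are not independent of each other.

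**Figure D2:**
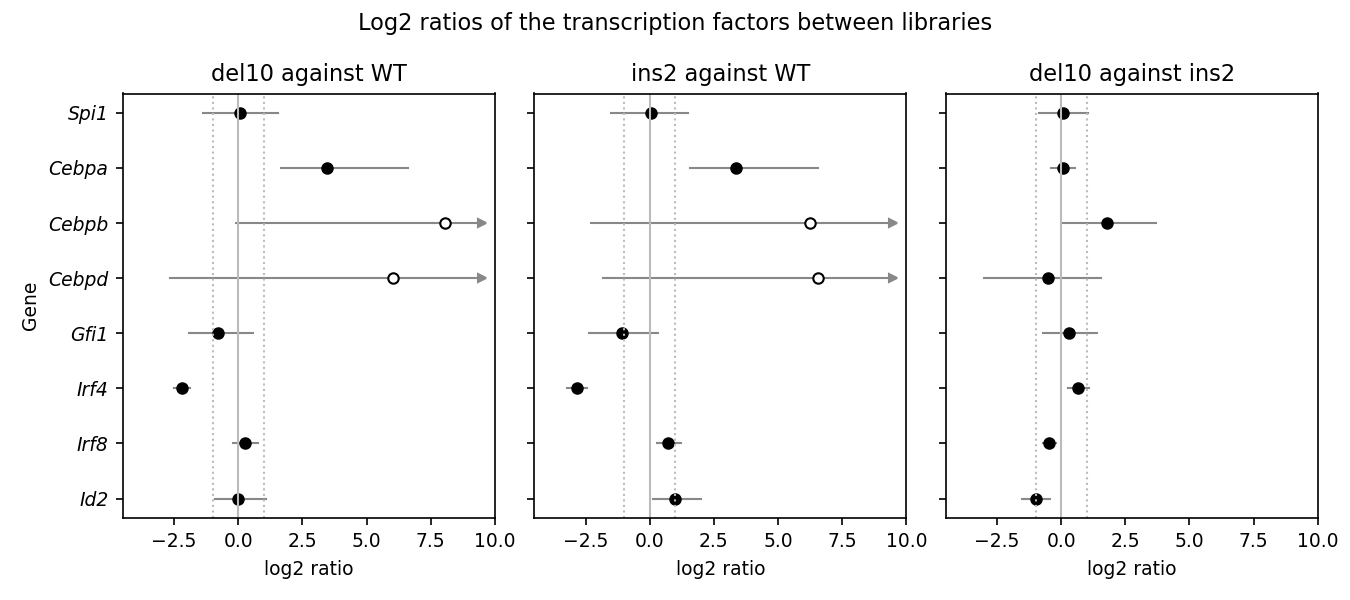
Log2 ratios (log2 of normalized count + 1) of 8 transcription factors in the 3 comparisons, with lines for 95% exact binomial intervals on estimated fragments; open points have a WT count of 0, arrows have no upper limit, and dotted lines mark 2-fold. *Cebpa* (3.45 in del10, 3.38 in ins2) and *Irf4* (-2.18 and -2.85) lie clear of 0 against WT. In del10 against ins2, *Cebpa* lies close to 0 (0.07) and *Irf4* above it (0.67), within 2-fold.

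Between the knock-in libraries, which leaves WT out, none of the 6 factors passed 2-fold, where 3.59% of main-set genes were over 2-fold higher in del10 and 4.03% lower. *Cebpa* was at 1.05-fold in del10 relative to ins2 (interval 0.767 to 1.45), *Spi1* at 1.04-fold (0.547 to 2.06) and *Gfi1* at 1.22-fold (0.606 to 2.62). *Irf4* was 1.59-fold higher in del10 (1.20 to 2.09), *Irf8* 1.38-fold lower (1.15 to 1.66) and *Id2* 1.99-fold lower (1.37 to 2.88). *Id2* lay at the threshold and passed 2-fold when the libraries were scaled by total counts or by the median of ratios. The intervals of these 3 leave out no difference, as did those of 16.4% of main-set genes. *Cebpb*, below the minimum of the main set, was 3.49-fold higher in del10 (1.02 to 13), from 3.67 estimated fragments in ins2 and 16.2 in del10. *Cebpd* lay at 0.697-fold (0.125 to 2.93).

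Markers of other cell types moved with several of the factors, and their part in these differences was not tested. Of 18 B-lineage genes, none at 0 in any library, 17 were in the main set, and the count over 2-fold below WT was 16 for del10 and 14 for ins2. Their summed normalized count was 73528 (WT), 19221 (ins2) and 16809 (del10), with *Ms4a1*, *Cd72* and *Pou2af1* lowest against WT in del10 (log2 ratios -3.54, -2.90 and -2.71). *Irf4* was likewise lower than WT in both knock-in libraries, though it was higher in del10 than in ins2 and the B-lineage sum was not. The list was not uniform in this. In del10 against ins2, 3 of the 17 were over 2-fold lower, 14 were within and the median log2 ratio was -0.11. *Rag1* alone had 7175 (ins2) and 4899 (del10), while *Ebf1* rose from 1088 to 1587. Of the 7 plasma cell genes found, 2 were in the main set, *Sdc1* (1279, 444 and 248) and *Igj* (383, 734 and 172). Below it, *Prdm1* had 246 (WT), 149 (ins2) and 213 (del10), and *Derl3* 2.14, 0 and 54.0. *Xbp1*, *Tnfrsf17* and *Mzb1* were at 0 in the 3 libraries.

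For *Id2*, the 18 T and NK cell genes summed to 13818 (WT), 25102 (ins2) and 12304 (del10). Of the 13 in the main set, 8 were over 2-fold higher in ins2 than in WT and 1 in del10, and 8 were over 2-fold lower in del10 than in ins2. The genes of the CD3 chains that define T cells were all below the main set. *Cd3e* had 199, 334 and 61.1, *Cd3d* 0.385, 187 and 11.8, and *Cd3g* 0, 194 and 32.6. In WT, CD3 RNA thus rested on *Cd3e*, at 2.97 estimated fragments. *Lck*, a kinase of T and NK cells, had 648, 2115 and 1318, *Gata3* 951, 510 and 238, and *Il7r* 3679, 1950 and 1538.

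For *Cebpa*, 8 of 12 basophil and mast cell genes were in the main set, and 7 of these were over 2-fold higher in each knock-in library. The 12 summed to 4010, 27469 and 37467, and *Ms4a2* and *Tpsb2*, which mark basophils and mast cells, were at 0 throughout. *Mcpt8* had 203, 3678 and 6320, *Prss34* 785, 11103 and 15962, and *Hdc*, which makes histamine, 191, 2642 and 3517. Of 12 LSK identity genes, 5 of the 6 in the main set were over 2-fold higher in each, and the 12 summed to 1293, 7552 and 10258. Of these 12, 5 were at 0 (WT), 2 (ins2) and 1 (del10).

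**Figure D3:**
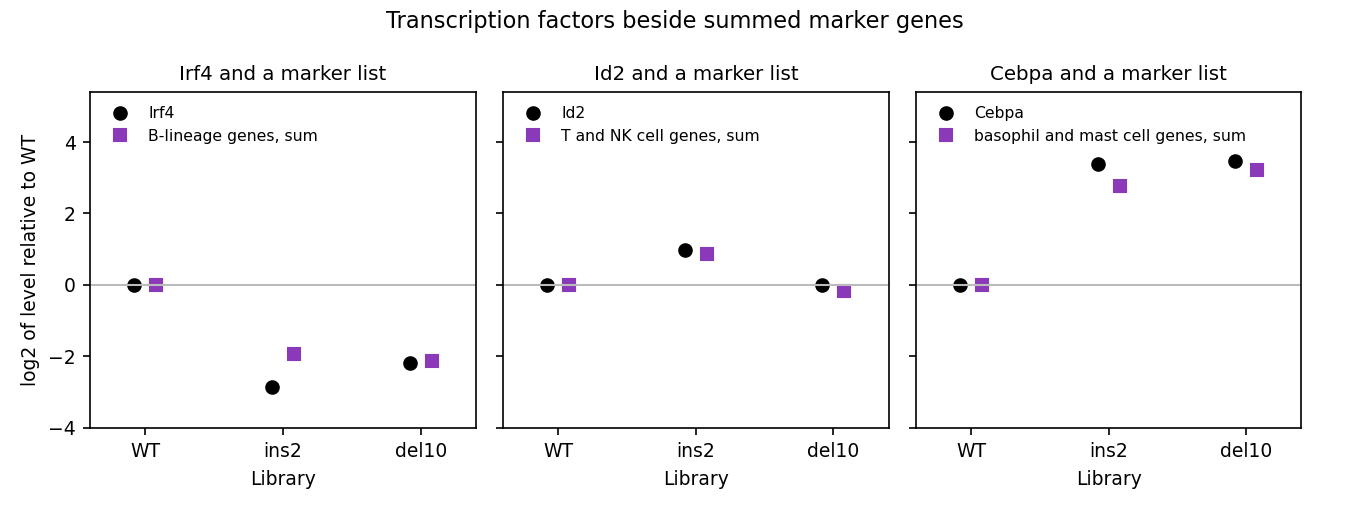
Log2 of the level relative to WT for *Irf4*, *Id2* and *Cebpa* (circles, normalized counts) and for the summed normalized counts of a marker list (squares), 1 point per library. The lists were set beside the factors after their values were seen; the B-lineage sum is 73528 in WT and 16809 in del10, and the T and NK cell sum is highest in ins2 at 25102.

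Markers of 3 further cell types gave these values. The 10 erythroid genes summed to 12574 (WT), 7490 (ins2) and 9449 (del10), with *Gata1* at 106, 336 and 434, *Klf1* at 113, 143 and 464 and *Hbb-b1* at 2049, 579 and 773. The 7 megakaryocyte genes summed to 1761, 3261 and 5067, with 2 in the main set, *Itga2b* (987, 2775 and 4286) and *Vwf* (456, 318 and 326). The 8 stromal and endothelial genes summed to 8011, 3577 and 2305, and *Sparc*, *Col1a1* and *Col1a2* were the 3 of 4 in the main set that were over 2-fold lower in each.

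Among main-set genes, the C/EBP and IRF relatives mostly lay within 2-fold of WT, and *Spib* and *Id3* were lower. Among 9 IRF relatives, counting IRF2-binding proteins, 8 were in the main set: in del10, *Irf1*, an interferon-induced activator, was over 2-fold higher (1653 in WT, 2698 in ins2, 3367 in del10), *Irf5* was over 2-fold lower (664, 473 and 316) and 6 were within, *Irf7* among them, and in ins2 all 8 were within. *Cebpg* (1064, 609 and 1004) and *Cebpz* (683, 1004 and 1196), a factor named with the family but not of its leucine zipper type, were within 2-fold in both. *Spib*, the PU.1 relative of B cells and plasmacytoid dendritic cells, was 1 of 3 SPI and GFI relatives in the main set and was lower, at 6665, 1577 and 1556 (log2 ratios -2.10 in del10 and -2.08 in ins2). Of *Id1*, *Id3* and *Id4*, only *Id3* was in the main set, at 390, 98.2 and 171, over 2-fold lower in both comparisons. Below the main set, *Id1* had 1.10 (WT), 125 (ins2) and 186 (del10), and *Id4* 91.0, 0 and 0. Among the E proteins that ID2 binds, *Tcf3* was lower in both (6159, 2276 and 2600), and *Tcf12* (2588, 2065 and 1584) and *Tcf4* (2417, 3142 and 2497) were within 2-fold. The 6 genes of GFI1 corepressors, *Hdac2*, *Rcor1* and *Ehmt2* among them, were within 2-fold in both comparisons, with medians of -0.02 in del10 and -0.24 in ins2.

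Of 22 partner and upstream regulators, 17 were in the main set. In del10, 7 were over 2-fold higher and 1 lower, with a median log2 ratio of 0.34, and in ins2 3 were higher and 1 lower, with a median of -0.15. *Gata2*, a stem cell and basophil regulator, had 804 normalized counts (WT), 5708 (ins2) and 6340 (del10). *Lmo2*, an adaptor of GATA and TAL1 complexes, had 333, 1443 and 1413, and *Egr1*, an immediate early gene that also acts in monocyte differentiation, 3426, 6514 and 13736.

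Lists of myeloid receptor, granule, oxidase and cell type genes were described in turn. Whether the factors act on these genes in these cells was not tested. Of 9 myeloid growth factor receptor genes, 6 were in the main set, and the count over 2-fold above WT was 3 for del10 and 4 for ins2, with none below and medians of 1.46 and 1.85. *Csf2rb*, the common beta chain, had 412, 4683 and 4903, its near-identical copy *Csf2rb2*, with which it can share reads, 415, 2321 and 2110, and *Flt3* 71.5, 1682 and 1533. Of 9 primary granule genes, 6 were in the main set, with 3 over 2-fold above WT and 1 below in del10, and 1 above and 1 below in ins2. The precursor genes *Mpo* (1034, 1581 and 2972) and *Ctsg* (144, 206 and 774) exceeded 2-fold in del10 only. *Prtn3* (111, 261 and 310) was over 2-fold higher in each comparison, with intervals that include no difference. *Elane* (418, 104 and 129) was over 2-fold lower in each comparison, also with intervals that include no difference. None of the 11 secondary and tertiary granule genes beside *Cebpe* reached the main set, and 10 of them were at 0 (WT), 8 (ins2) and 9 (del10).

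The 6 phagocyte oxidase genes were all in the main set, with 2 over 2-fold higher in del10, 3 in ins2 and none lower. *Ncf1* had 644, 2230 and 1603, and *Ncf4*, with 0.287 estimated fragments in WT, had 19.3, 442 and 280. Of 17 monocyte and macrophage genes found, 9 were in the main set, of which 1 was higher and 2 lower in del10, and 3 higher and 1 lower in ins2. The 17 summed to 6259 (WT), 8921 (ins2) and 6683 (del10), and *Ccr2* alone gave 1015, 3389 and 1788 of this. The excess of del10 over WT was larger for *Ccr2* than for the sum. *Irf8* had the order of this sum. The genes one by one did not all share it: the median log2 ratio to WT of the 9 was -0.37 in del10 and 0.16 in ins2. Of the 17, 6 were at 0 in WT: *Cd68* (0, 188 and 49.9), *Cx3cr1* (0, 134 and 99.8), *Emr1* (0, 83.6 and 0), *Ly6c1* (0, 62.0 and 16.8), *Cd14* (0, 0 and 10.2) and *Fcgr1*, at 0 throughout. *Fcgr3* had 70.4, 498 and 752, *F13a1* 265, 400 and 93.8, and *Lyz2* 269, 264 and 113. The 14 dendritic cell genes summed to 14177, 14860 and 11167. In the main set, 3 of 9 were over 2-fold higher and 2 lower in each comparison, with *Runx2* (773, 3569 and 2714) highest in the knock-in libraries and *Spib* and *Ly6d* (1541, 550 and 425) lowest. The part of monocytes or dendritic cells in the *Irf8* values was not tested.

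**Figure D4:**
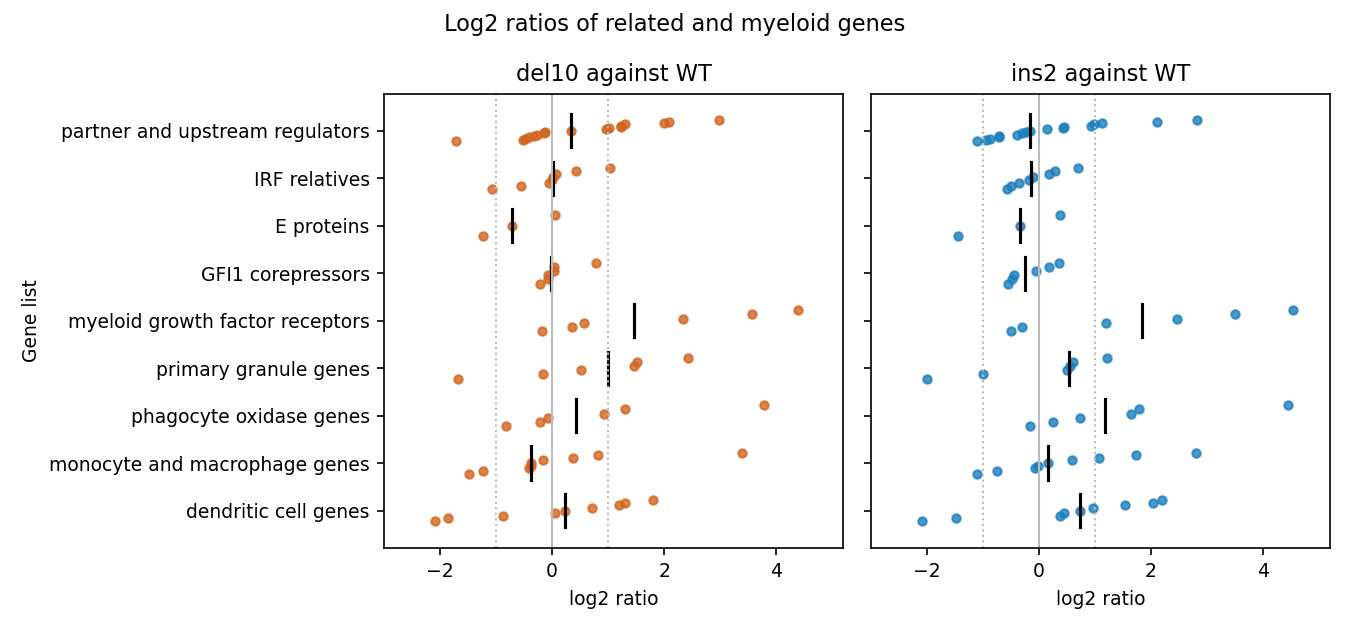
Log2 ratios to WT of main-set genes in 9 lists, 1 point per gene in order of its ratio, with the list median as a bar and dotted lines at 2-fold; the 9 factors themselves are left out. Receptor genes have the highest medians (1.46 in del10 and 1.85 in ins2), and GFI1 corepressor genes lie within 2-fold.

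The genes whose pattern was most like each factor were sought among main-set genes within 1 log2 unit of its mean level, by distance over the 3 library values after centring. For *Irf4* these were *Ebf1*, the early B-cell factor (7865 (WT), 1088 (ins2) and 1587 (del10), distance 0.100 log2 units), and *Cecr2* (0.161), out of 951 candidates. *Ebf1* is also on the B-lineage list above. For *Cebpa* they were *Ern1*, the endoplasmic reticulum stress sensor IRE1 alpha (83.2, 863 and 998, distance 0.104), and the chemokine *Ccl6* (200, 1917 and 1950, distance 0.127). For *Irf8* they were the actin regulators *Actr3* and *Coro1a*, for *Id2* *Pde7a* and *Hadhb*, for *Gfi1* *Anks3* and *6330407A03Rik*, and for *Spi1* *Isyna1* and *Lrrc8d*. With 3 values per gene, such likeness is a description of these libraries.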

How the data were processed

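Ribosomal RNA was depleted before library construction, and single-end reads of 75 bp were obtained from 1 library for each of 3 genotypes. The authors trimmed and aligned the reads to mm10 and assigned them to RefSeq genes. Tools listed by the submitters' processing notes are TopHat2 2.1.1, Bowtie2 2.2.3, Trimmomatic 0.32 and bcl2fastq 2.20. The authors deposited estimated counts, which can hold fractions of reads, and log2 values scaled with TMM factors. The factors implied by the 2 sets of values are 1.10 (WT), 0.984 (ins2) and 1.02 (del10), and they return the deposited log2 values with a deviation of at most 1.39e-06.

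Counts were rounded to whole fragments or reads for intervals. The commonest low read count was sought between 5 and 150 reads with a moving mean of 5 counts on each side, a measure taken up with the data already seen. The main set held 7073 of 14145 detected genes. The factors and 21 other gene lists were chosen with earlier results of these data known. All 9 factors are named, as are *Kit*, *Ly6a*, *Cd34* and *Calr* and, from each list, up to 3 main-set genes with the largest absolute ratio in del10 against WT. A gene that this rule selects is not reported here. *Id1*, *Id4*, *Prtn3*, *Ccr2*, *Rag1*, *Prdm1*, *Derl3*, the CD3 genes and the markers named as being at 0 were added after their values were seen. No replicate test was possible. Recovery of known folds and interval coverage were tested on simulated independent reads, and the search for the commonest low count on simulated clumped reads. The coverage of intervals on estimated fragments was not simulated. Alternatives were other pseudocounts, scalings, filters, thresholds and handling of zeros. Python 3.11.15, NumPy 2.4.6, pandas 2.3.3, SciPy 1.17.1 and matplotlib 3.10.9 were used.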

Additional observations from a re-analysis of the deposited data

How the results depend on the processing

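Pseudocounts of 0.5 and 10, scaling by total counts or by the median of ratios, and zeros set to 3 reads left the counts against WT as they were. They kept 100 of 100 log2 ratios of single factors within their intervals on fragments. Rescaling moved all genes by at most 0.07 log2 units, and setting zeros to 3 reads cannot change a nonzero count, so this says little. *Spi1*, close to no difference, changed sign in del10 against ins2 with total counts (0.05 to -0.02). It also did so in ins2 against WT with the median of ratios (0.03 to -0.00). The other 20 log2 ratios, of *Cebpb* and *Cebpd* against a WT count of 0, have intervals without an upper limit. Staying inside these says nothing, and the 20 ranged from 2.91 to 9.05 with the setting. Without a filter on low values, 3 factors were over 2-fold higher in del10 against WT and 3 in ins2 against WT, since *Cebpb* and *Cebpd* enter, and 1 in del10 against ins2. In ins2 against WT, 1 factor was lower with a minimum mean of 1000 normalized counts, 1 over 4-fold, and, by intervals on fragments, 3 were higher and 1 lower. In del10 against ins2, intervals gave 1 higher and 2 lower, and scaling by total counts and by the median of ratios gave 1 lower each, as *Id2* then passed 2-fold. Shares over all genes were not taken without the filter, at the minimum of 1000, over 4-fold or with the other scalings. The counts of factors at those settings therefore do not set the factors apart. No paired analysis was possible because each genotype had 1 library, and leaving out a library leaves nothing to compare within its genotype. The low number of estimated fragments in WT limits *Cebpa*, *Cebpb*, *Cebpd*, *Gfi1* and *Spi1* most.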
